A study of Homo sapiens with 9 samples.

Results

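Gene expression in LAPC4 cells labelled as UGT2B28 knockdown was compared with that in control LAPC4 cells by RNA sequencing. The comparison used 6 of the 9 libraries of the series, 3 controls titled NT and 3 libraries titled KD4, chosen by their labels and all taken at day 30. LAPC4 is a human prostate cancer line that responds to androgen. The labels give the control cells the genotype "Control" with no selection drug of their own, and name 3 ug/mL puromycin as the selection for knockdown cells. The reagent that targets UGT2B28 is not described in the sources used here, and neither is the number of separate cultures or clones. An effect of puromycin selection therefore cannot be told apart from one of the knockdown, and p-values reflect only how far these libraries spread, which could be technical. The study as a whole asks what UGT2B28 does in prostate cancer, and this comparison asks which transcripts differ when the gene is targeted.

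UGT2B28 encodes a UDP-glucuronosyltransferase of the endoplasmic reticulum. Enzymes of this family join glucuronic acid from UDP-glucuronate to steroids, androgens included, so that the product becomes water-soluble and can leave the cell. In prostate epithelium such conjugation is one of the routes that lower the androgen available in the cell. Androgen drives kallikrein genes such as KLK3, which encodes prostate-specific antigen.

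The controls held 8132206 to 9410048 counts on genes and the knockdown-labelled libraries 8292433 to 14185252. All 6 libraries expressed the luminal prostate markers, with KLK3 at 624 to 1273, FOXA1 at 678 to 788 and EPCAM at 263 to 350 CPM (counts per 1e+06 counts, scaled by the TMM method). Several markers that define other cell types were near 0: PTPRC of leukocytes had 0 counts in all 6 libraries, TP63 of basal cells at most 2, PECAM1 of endothelium at most 3 and CHGA of neuroendocrine cells at most 5. Others were detected: KRT14 of basal cells reached 25 counts, SYP of neuroendocrine cells 43 counts, and the mesenchymal genes VIM and COL1A1 ranged from 2.68 to 7.26 and from 13.9 to 48.1 CPM. The 3 knockdown-labelled libraries did not resemble each other equally. Among 12016 genes with a mean of at least 5 CPM, 54 (0.449%) differed at least 2-fold between knockdown-labelled libraries 1 and 2. The number was 1925 (16%) between libraries 1 and 3 and 1685 (14%) between libraries 2 and 3, against 14 to 97 between pairs of controls. Mitochondrially encoded RNAs took 15.1%, 15.8% and 10.2% of the counts in knockdown-labelled libraries 1, 2 and 3 and 7.62% to 8.57% in the controls. Values below are therefore given for each library.

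The mean level of UGT2B28 mRNA was nearly the same in the libraries labelled knockdown as in the controls, so the counts of the group do not bear out the label. The gene lies on chromosome 4 at 69280499 to 69295050 (GRCh38, plus strand). It had 44, 50 and 76 counts in control libraries 1, 2 and 3 and 63, 70 and 28 in the knockdown-labelled libraries, or 4.98, 4.96 and 7.56 CPM against 8.17, 5.97 and 2.94 CPM. Knockdown-labelled library 3 lay below every control, library 1 lay above every control, and library 2 lay among them. The group means were 5.83 ± 1.49 and 5.70 ± 2.63 CPM (SD, n = 3), which gives a log2 fold change of -0.04 with a 95% confidence interval of -0.95 to 0.86 (SE 0.393, adjusted p = 0.967 in edgeR). The fit without library 3 gave 0.26 (adjusted p = 0.498), and the fit of library 3 alone against the controls gave -1.004 (adjusted p = 0.124). Over all alternatives the adjusted p ran from 0.124 to 0.977, and the value changed sign with the library left out. Every direction below refers to how the libraries are labelled and not to a measured loss of UGT2B28 mRNA.

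The related enzyme UGT2B11 stood at 47.6, 45.0 and 63.1 CPM in the controls and at 33.7, 32.6 and 43.4 CPM in knockdown-labelled libraries 1, 2 and 3. All 3 knockdown-labelled values lay below the lowest control by a narrow margin (log2 fold change -0.51, SE 0.181, adjusted p = 0.282). Its groups overlapped when scaling factors were left out. UGT2B15, which conjugates dihydrotestosterone, stood at 6.11, 4.76 and 3.78 CPM in the controls against 4.80, 7.67 and 8.83 CPM in those labelled knockdown, with overlapping groups (log2 fold change 0.55, SE 0.318, adjusted p = 0.451). UGT2B10 and UGT2B4 had at most 3 counts in any of the 6 libraries and were not tested. Of the 100-base stretches of the UGT2B28, UGT2B11 and UGT2B15 transcripts, 5.71%, 9.3% and 12.7% also occur in another gene, so some of their reads could have been assigned to either or to none.

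**Figure D1:**
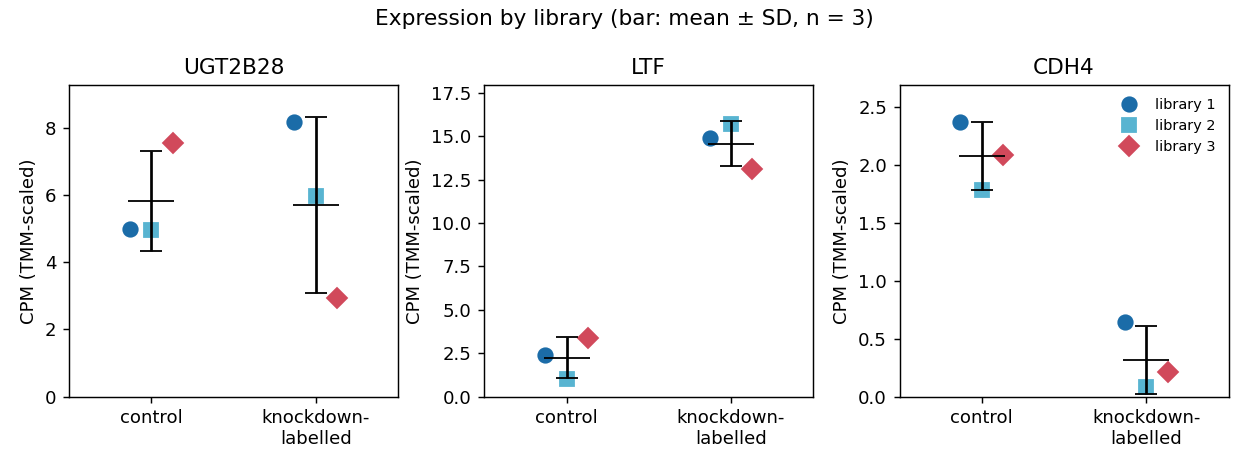
Expression of UGT2B28, LTF and CDH4 in CPM (linear axes from 0) in control and knockdown-labelled libraries; each point is 1 library and bars give the mean ± SD of 3. The groups overlap for UGT2B28, with knockdown-labelled library 3 lowest at 2.94 CPM, and do not overlap for LTF or CDH4.

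No gene passed the test in the 6 libraries. Of 15897 genes tested, 0 (0%) reached an adjusted p under 0.05 in edgeR's quasi-likelihood test, and the smallest adjusted p was 0.210. At an unadjusted p under 0.05 there were 2328 genes, 1342 higher and 986 lower in the knockdown-labelled libraries. DESeq2 called 276 genes, limma-voom 0, and limma-voom with sample quality weights 6461, with a weight of 0.102 for knockdown-labelled library 3. Values of single genes below are therefore descriptions of 6 libraries, and none is a call. As a description, 1732 genes (10.9%) had all 3 knockdown-labelled libraries above all 3 controls, and 1696 (10.7%) had all 3 below. Without scaling factors these numbers were 711 and 2725, and the median log2 fold change over all genes moved from 0.01 to -0.20. The gap between the nearest libraries of the 2 groups reached 1 on the log2 CPM scale in only 10 genes on each side and 0.5 in 73 genes on the higher and 123 on the lower side. A gene counted for all 3 libraries is also counted for each, so single libraries leave the range of the controls at least as often. Library 1 lay above that range in 5997 genes and below it in 6140, and library 3 in 5805 and 5712.

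Among the protein-coding genes ranked and reported here, LTF had the widest gap on the higher side. It encodes lactoferrin, an iron-binding glycoprotein that epithelia secrete and neutrophils store, and lies on chromosome 3 at 46435645 to 46485234 (GRCh38, minus strand). Its counts were 21, 10 and 34 in the controls and 115, 184 and 125 in knockdown-labelled libraries 1, 2 and 3. In CPM it stood at 2.37, 0.99 and 3.38 in the controls and at 14.9, 15.7 and 13.1 in those labelled knockdown. The 3 knockdown-labelled values lay close together, library 3 included, and every one was above every control. The means were 2.25 ± 1.20 and 14.6 ± 1.31 CPM (SD, n = 3; log2 fold change 2.69, SE 0.382, 95% confidence interval 1.81 to 3.57, adjusted p = 0.241). In the fits tried otherwise the log2 fold change ran from 2.33 to 3.12 and the adjusted p from 2.42e-13 to 0.702.

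CDH4 had a wide gap on the lower side. It encodes R-cadherin, a classical cadherin of calcium-dependent cell adhesion, and lies on chromosome 20 at 61252426 to 61940617 (GRCh38, plus strand). Its counts were 21, 18 and 21 in the controls and 5, 1 and 2 in knockdown-labelled libraries 1, 2 and 3, which is 2.37, 1.79 and 2.09 CPM against 0.65, 0.09 and 0.21 CPM. All 3 knockdown-labelled libraries lay below the controls, but the size of the difference rests on few counts. The means were 2.08 ± 0.295 and 0.315 ± 0.296 CPM (SD, n = 3; log2 fold change -2.80, SE 0.646, 95% confidence interval -4.28 to -1.31, adjusted p = 0.241). The adjusted p ran from 0.00173 to 0.702 over the other fits.

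The 12 protein-coding genes with the widest gap on the higher side among those reported were LTF, NEFH, LGALS12, ROBO2, SLC1A3, SCGN, THAP10, UPRT, PDE8B, CDH6, ZNF563 and C1orf53. They were ranked by the distance between the nearest knockdown-labelled and control libraries, so that the least different library decides, and had to average 2 CPM or more in the higher group. The 12th and 13th genes, C1orf53 and DCN, had gaps of 0.62 and 0.61 on the log2 CPM scale. NEFH, the heavy neurofilament subunit, stood at 0.34, 0.50 and 0.60 CPM in the controls and at 1.43, 2.73 and 2.31 CPM in knockdown-labelled libraries 1, 2 and 3 (log2 fold change 2.15, SE 0.487). LGALS12 encodes galectin-12, a lectin best known from fat cells. It stood at 1.70, 1.49 and 1.69 CPM against 8.95, 8.18 and 3.47 CPM, so that libraries 1 and 2 lay further from the controls than library 3.

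Several of these genes encode surface proteins. ROBO2, a receptor for SLIT guidance proteins, stood at 2.15, 3.57 and 3.58 CPM in the controls and at 7.14, 6.99 and 9.36 CPM in knockdown-labelled libraries 1, 2 and 3 (log2 fold change 1.33, SE 0.300, adjusted p = 0.241). CDH6, a cadherin of kidney epithelium, stood at 7.35, 5.26 and 5.07 CPM against 14, 15.5 and 11.7 CPM (log2 fold change 1.22, SE 0.235, adjusted p = 0.241). SLC1A3, a glutamate and aspartate transporter of glia, stood at 0.79, 1.29 and 0.89 CPM against 2.47, 3.24 and 2.63 CPM. Library 3 was the highest of the knockdown-labelled libraries for ROBO2, the lowest for CDH6 and lay between the other two for SLC1A3. SCGN, a calcium-binding protein of endocrine cells, stood at 0.90, 2.18 and 2.68 CPM against 7.27, 7.08 and 4.52 CPM. C1orf53 stood at 1.70, 1.39 and 1.59 CPM against 4.02, 2.73 and 2.73 CPM. ZNF563, a zinc finger gene, stood at 3.05, 2.78 and 2.88 CPM against 5.06, 4.94 and 4.84 CPM, with little spread in either group. THAP10, UPRT and PDE8B had log2 fold changes of 1.37, 0.85 and 1.44. For PDE8B, a cAMP phosphodiesterase, 47.7% of the 100-base stretches of its transcript also lie in an overlapping gene model, so its count is uncertain.

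On the lower side the 12 genes were AGAP6, CDH4, FAM20C, UTS2B, BBS1, PDF, KREMEN2, OPLAH, TUBA3D, TNFAIP2, FSCN2 and ZBTB12, and the 13th, ZGPAT, had a gap of -0.62 against -0.67 for ZBTB12. FAM20C, the Golgi kinase that phosphorylates secreted proteins, stood at 9.84, 9.13 and 9.05 CPM in the controls and at 4.15, 4.69 and 4.52 CPM in knockdown-labelled libraries 1, 2 and 3 (log2 fold change -1.06, SE 0.217, adjusted p = 0.241). KREMEN2, a receptor for the Wnt inhibitors of the Dickkopf family, stood at 20.8, 21.4 and 18.5 CPM against 11, 10.2 and 9.99 CPM (log2 fold change -0.96, SE 0.161, adjusted p = 0.241). TNFAIP2, a gene induced by tumour necrosis factor, stood at 38.8, 37.9 and 49.5 CPM against 23.4, 21.5 and 23.4 CPM (log2 fold change -0.89, SE 0.153, adjusted p = 0.241). In these genes the 3 knockdown-labelled libraries lay close to each other, and library 3 did not stand apart. OPLAH, the enzyme that opens 5-oxoproline in glutathione turnover, stood at 21.8, 20.9 and 27.1 CPM against 12.2, 12.5 and 11.8 CPM, and ZBTB12, a zinc finger gene, at 23.7, 21.7 and 22.4 CPM against 13.6, 12.4 and 12.3 CPM. UTS2B, a urotensin-related peptide, and FSCN2, a retinal actin-bundling protein, had log2 fold changes of -1.04 and -1.14 at under 4 CPM in every library. AGAP6 had the widest gap of the 12, at 5.09, 4.96 and 5.07 CPM against 0.91, 1.11 and 1.47 CPM. However, 37.6% of its 100-base stretches also lie in near-identical AGAP genes. For BBS1, PDF and TUBA3D the shared portion was 86.3%, 43.6% and 21.1%, so the counts of these 4 genes are uncertain.

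The genes were chosen for wide gaps, so that their lack of overlap under other settings is a description. The gaps of some lower genes were much smaller after each library was corrected for exon length and GC content. On the log2 scale the gap between the groups went from -0.67 to -0.0076 for FSCN2, from -0.73 to -0.12 for KREMEN2, from -0.73 to -0.15 for OPLAH and from -0.69 to -0.22 for TNFAIP2.

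**Figure D2:**
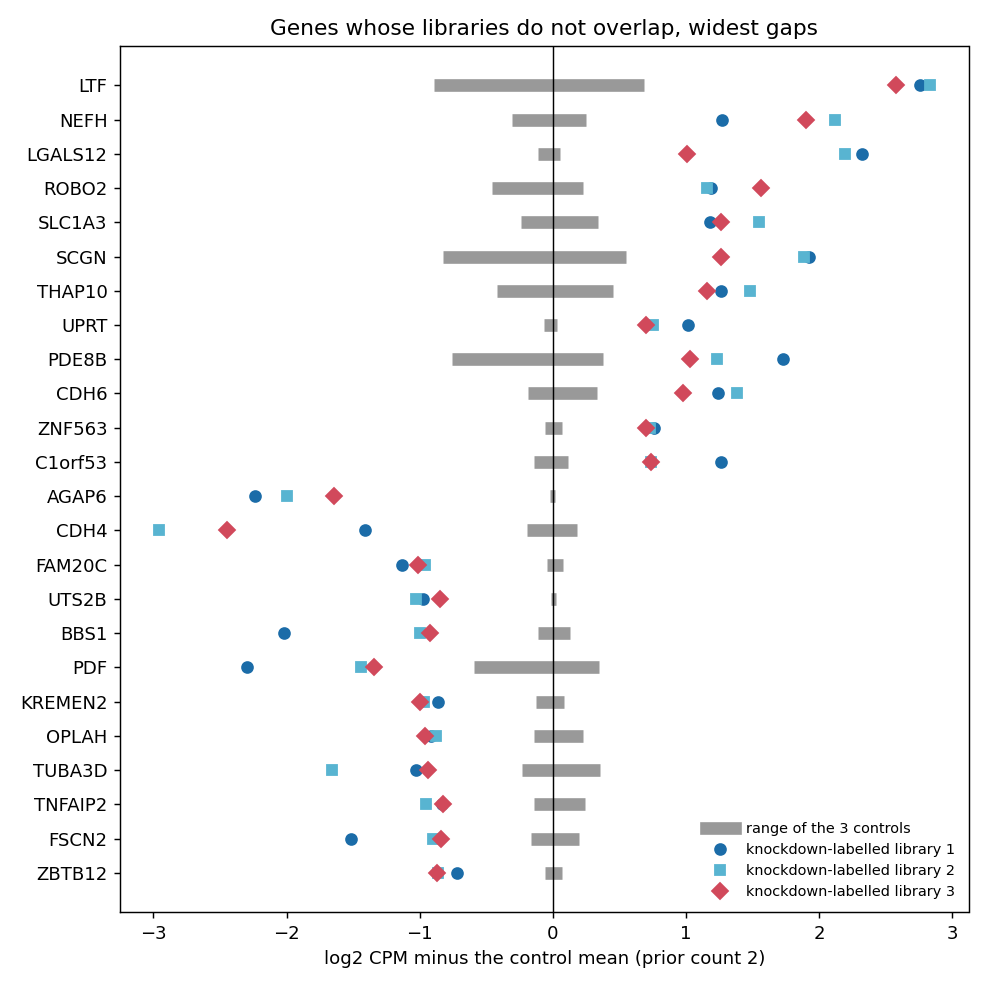
Difference in log2 CPM (prior count 2) from the control mean for the 12 reported genes with the widest gap on each side. Grey bars span the 3 controls and each symbol is 1 knockdown-labelled library. LTF and CDH4 show gaps of 1.90 and -1.22 between the nearest libraries, and C1orf53 and ZBTB12, the narrowest shown, 0.62 and -0.67.

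The base composition of the transcripts went with the side on which a gene lay. Among the 12 genes on the higher side the median GC content of the longest transcript was 44.4%, and among the 12 on the lower side 62.1%. The start of the coding sequence is printed for 1 gene of each side, ZNF563 (chromosome 19, 12317477 to 12333720, GRCh38) and KREMEN2 (chromosome 16, 2963944 to 2968383). They were chosen within each side, among those of the 24 genes whose longest coding transcript starts with a start codon. ZNF563 had the lowest coding GC content of those on the higher side, 41.9% of 1428 coding bases. KREMEN2 had the highest of those on the lower side, 71.6% of 1197 coding bases. Each line holds the first 120 coding bases from GENCODE release 29, 5′ to 3′, with G and C in capitals; they make up 48.3% of the bases shown for ZNF563 and 64.2% of those for KREMEN2.
ZNF563: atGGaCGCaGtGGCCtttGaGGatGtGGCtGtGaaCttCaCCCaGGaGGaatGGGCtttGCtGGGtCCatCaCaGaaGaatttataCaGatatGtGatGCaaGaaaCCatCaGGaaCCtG
KREMEN2: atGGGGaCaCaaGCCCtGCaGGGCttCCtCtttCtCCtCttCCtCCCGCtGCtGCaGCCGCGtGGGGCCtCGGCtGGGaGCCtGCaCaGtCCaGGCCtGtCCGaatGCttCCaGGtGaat

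The same held across all tested protein-coding genes. In the tertile of genes with the lowest transcript GC content (30.2% to 43.7%), 24% lay above the controls in all 3 knockdown-labelled libraries and 1.66% lay below. In the tertile with the highest (53.9% to 74.7%), 2.08% lay above and 21.7% below, and in the middle tertile 10.2% and 8.08%. The median GC content was 41.5% for the 1468 higher genes, 57.9% for the 1274 lower genes and 48.3% for all 12140. Library 3 held most of this difference. Relative to the control mean, the median log2 CPM of the lowest, middle and highest GC tertiles was 0.26, 0.06 and -0.38 in knockdown-labelled library 3. In library 1 it was 0.05, -0.03 and 0.03, and in library 2 it was 0.12, -0.01 and -0.02. With libraries 1 and 2 alone, the share above the controls was 37.3%, 30.5% and 31.2% in the lowest, middle and highest tertile, and the share below was 23.2%, 32.6% and 30.0%. Gene length moved with all 3 libraries, in library 3 the opposite way to libraries 1 and 2. The shortest, middle and longest tertile of genes by exon length stood at 0.29, 0.00 and -0.17 in library 1, at 0.26, 0.02 and -0.15 in library 2 and at -0.14, 0.03 and 0.14 in library 3. The correction for length and GC content takes each library's trend with them out, so more even shares over the GC tertiles follow from it. The share above the controls was then 10.2%, 11% and 12.2% over the 3 GC tertiles. The share below was 6.23%, 6.65% and 6.35%. The part of RNA quality or library preparation in these differences was not tested.

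**Figure D3:**
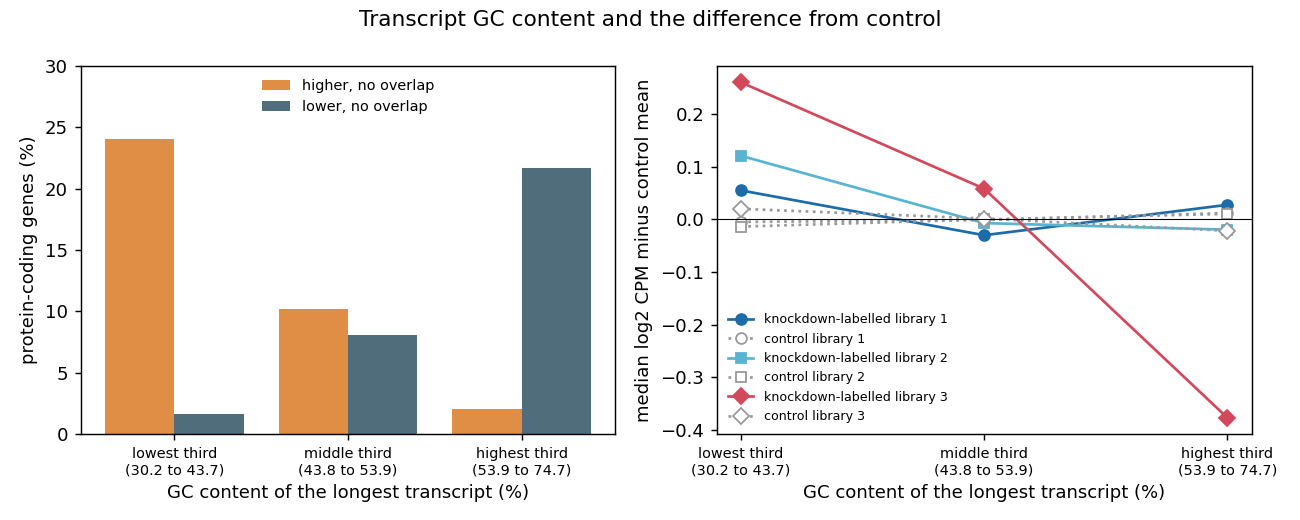
Left, percent of protein-coding genes with no overlap between groups, higher or lower in the knockdown-labelled libraries, by tertiles of transcript GC content; right, median log2 CPM minus the control mean in each of the 6 libraries for the same tertiles. Knockdown-labelled library 3 goes from 0.26 to -0.38, and the other libraries lie between -0.03 and 0.12.

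In the gene lists of translation and respiration, the medians of libraries 1 and 2 lay above the control mean. The median of library 3 lay above it only for the mitochondrially encoded mRNAs. The mitochondrial genome encodes core subunits of the respiratory chain. Of its 13 mRNAs, 13 had log2 fold changes over 0, 9 lay above the controls in all 3 libraries and 0 passed. Their median log2 fold change was 0.99, beside 0.01 over all genes, and it stood at 1.23, 1.28 and 0.26 in knockdown-labelled libraries 1, 2 and 3. MT-ND1 stood at 2310, 2412 and 2139 CPM in the controls against 5935, 6056 and 2748 CPM in those labelled knockdown. All 3 lay above the controls, library 3 by the least. Of 77 cytosolic ribosomal protein mRNAs, 6 lay above the controls in all 3 libraries, a smaller share than the 10.9% over all genes. Of the 77, 0 lay below, beside 10.7% over all genes, and 0 passed. Their median was 0.99, 0.90 and -0.31 in libraries 1, 2 and 3, so that library 3 lay on the other side of the control mean. RPS4X, of the small subunit, was 1 of the 6 above the controls in all 3 libraries. It stood at 606, 620 and 596 CPM in the controls against 1141, 1124 and 682 CPM in those labelled knockdown. The 48 nuclear-encoded respiratory chain genes had 3 above, 2 below and medians of 0.87, 0.84 and -0.36. ATP5F1C, a subunit of ATP synthase and 1 of the 3 above, stood at 127, 124 and 124 CPM against 236, 241 and 134 CPM.

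The opposite placement of library 3 also appears when the libraries are fitted apart, a choice made with the difference already known. Without library 3, 3290 of 16324 genes (20.2%) were called higher than control and 2720 (16.7%) lower. With library 3 alone against the 3 controls, where the lone library is assumed to vary like the controls, 694 of 17364 genes (4%) were called higher and 1957 (11.3%) lower. Both fits use the same 3 controls, so their lists are not independent and are only set side by side. Of the 77 ribosomal protein mRNAs, 73 were called higher and 0 lower with libraries 1 and 2, and 0 higher and 50 lower with library 3. For the 48 nuclear respiratory chain genes the counts were 38 higher and 0 lower with libraries 1 and 2, and 0 higher and 20 lower with library 3. The 36 hypoxia and glycolysis genes had 13 higher and 4 lower against 0 higher and 9 lower. The 29 genes of epithelial identity and junctions had 13 higher and 1 lower against 1 higher and 11 lower. By contrast, 6 mitochondrially encoded mRNAs were still called higher with library 3, and 1 lower, against 13 higher with libraries 1 and 2.

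Replication-dependent histone genes, whose mRNAs mostly lack a poly(A) tail, had 4 of 20 tested members above the controls in all 3 libraries, 0 below and 0 that passed, with a median log2 fold change of 0.88, beside 10.9% above and 10.7% below over all genes. The medians of libraries 1, 2 and 3 were 1.16, 1.03 and 0.10. H1-2, a linker histone, stood at 78.6, 78.5 and 92.5 CPM in the controls against 452, 425 and 55.8 CPM in those labelled knockdown, with library 3 below every control. H2AC6 stood at 15.3, 14.9 and 17.9 CPM against 37.0, 32.8 and 19.5 CPM, above the controls in all 3. The 20 heat shock chaperones had 4 above, 0 below and a median of 0.49, with 0.66, 0.68 and -0.09 in libraries 1, 2 and 3. HSPA4, a cytosolic chaperone of the HSP110 type, lay above in all 3, at 127, 142 and 131 CPM against 94.2, 96.2 and 105 CPM in the controls.

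Mitosis genes had a smaller median difference. Of 37 tested members, 10 lay above the controls in all 3 knockdown-labelled libraries and 1 below, and 0 passed. Over all genes 10.9% lay above and 10.7% below. The median log2 fold change of the mitosis genes was 0.18, with 0.03, 0.14 and 0.25 in libraries 1, 2 and 3. Without scaling factors the median was -0.03, with 4 above and 1 below. Fitted apart, 14 of 38 were called higher and 8 lower with libraries 1 and 2, beside 20.2% and 16.7% over all genes. With library 3 alone their median log2 fold change was 0.23. SPC25, a kinetochore subunit, stood at 9.39, 10.8 and 10.6 CPM in the controls against 15.3, 15.0 and 15.0 CPM in those labelled knockdown. KIF20A, a kinesin of cytokinesis, stood at 56.2, 51.0 and 47.8 CPM against 71.8, 69.9 and 70.2 CPM. In both genes the knockdown-labelled libraries lay closer to each other than to any control. DNA replication genes were placed on both sides, 6 above and 9 below among 42, with a median of -0.04. The counts were 5 above and 2 below after the correction for length and GC content, and 0 above and 8 below without scaling factors. Those below included the cell cycle transcription factor E2F1, at 86.3, 99.3 and 90.7 CPM against 63.3, 71.6 and 61.2 CPM (log2 fold change -0.49, SE 0.127, adjusted p = 0.244), and the licensing factor CDT1, at 51.1, 53.8 and 42.5 CPM against 37.8, 35.3 and 35.4 CPM. RFC3, a clamp loader subunit, lay above (log2 fold change 0.50). E2F1, CDT1 and RFC3 overlapped between the groups after the correction.

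The enzymes and androgen genes nearest to UGT2B28 in function showed mixed values. Of 30 UDP-glucuronosyltransferases and steroid enzymes, 16 were tested and 0 passed. Of the 16, 4 lay above the controls in all 3 libraries and 1 below, beside 10.9% and 10.7% over all genes. The median log2 fold change of the 16 was 0.23, but -0.04 without scaling factors. HSD17B12, a 3-ketoacyl reductase that also acts on steroids, stood at 86.6, 79.96 and 97.0 CPM in the controls against 152, 177 and 121 CPM in those labelled knockdown (log2 fold change 0.77, SE 0.170, adjusted p = 0.241). STS, the sulfatase that frees steroids from their sulfates, stood at 1.24, 1.19 and 1.59 CPM against 3.24, 2.30 and 4.21 CPM, and UGP2, which makes UDP-glucose, had a log2 fold change of 0.57. All 3 genes lay above the controls in each knockdown-labelled library, but after the length and GC correction UGP2 overlapped and the HSD17B12 gap was 0.042 on the log2 scale. Of 49 androgen-induced genes, 10 lay above the controls in all 3 libraries and 1 below, beside 10.9% and 10.7% over all genes. The counts were 8 above and 7 below after the correction, and 7 above and 5 below without scaling factors. Over all genes they were 1565 above and 1113 below of 15375 after the correction. Without scaling factors they were 711 and 2725 of 15897. The median of the androgen-induced genes was 0.31, 0.40 and 0.00 in libraries 1, 2 and 3, and 0.02 for the group without scaling factors. ACSL3, an acyl-CoA synthetase, stood at 51.2, 60.4 and 67.5 CPM against 86.7, 82.8 and 79.1 CPM. PGC, the progastricsin gene, had overlapping groups, at 13, 13.6 and 20.2 CPM against 81.7, 92.4 and 19.6 CPM. KLK3 stood at 761, 756 and 1164 CPM in the controls and at 1273, 1261 and 624 CPM in knockdown-labelled libraries 1, 2 and 3, with libraries 1 and 2 above and library 3 below every control.

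Of 14 tested genes of lactoferrin and epithelial secretory defence, 3 lay above the controls in all 3 libraries and 0 below, beside 10.9% and 10.7% over all genes. Without scaling factors 1 lay above. The median was 0.54, 0.41 and -0.11 in libraries 1, 2 and 3. PIP, the prolactin-induced secretory protein, stood at 3.84, 4.27 and 7.16 CPM against 19.2, 22.2 and 5.68 CPM, and TFF3, a trefoil peptide, at 7.01, 8.23 and 9.94 CPM against 28.5, 21.2 and 6.83 CPM. Library 3 lay among or below the controls for PIP and TFF3, in contrast to LTF. The cadherins and catenins held CDH4 on the lower and CDH6 on the higher side, with 3 above and 3 below among 21 tested. DSC2, a desmosomal cadherin, stood at 164, 135 and 168 CPM against 203, 208 and 181 CPM.

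Of 17 tested mesenchymal and fibroblast markers, 5 lay above the controls in all 3 libraries and 1 below, and the median log2 fold change was 0.44. Over all genes the shares were 10.9% and 10.7%, and without scaling factors 2 of the 17 lay above and 1 below. DCN, which encodes the matrix proteoglycan decorin, stood at 2.60, 3.37 and 2.19 CPM in the controls against 8.95, 12.6 and 5.26 CPM in those labelled knockdown (log2 fold change 1.72, SE 0.377, adjusted p = 0.241). LUM, the related lumican, stood at 1.13, 0.79 and 2.19 CPM against 7.53, 3.92 and 2.94 CPM, and FN1, fibronectin, at 49.1, 51.2 and 62.0 CPM against 68.4, 78.6 and 94.8 CPM. All 3 genes lay above the controls in each library, with library 3 lowest for DCN and LUM and highest for FN1. The summed level of all 28 listed markers ranged from 448 to 618 CPM in the controls and from 526 to 625 CPM in the knockdown-labelled libraries, and the defining markers VIM and COL1A1 overlapped. The part of other cells in these values was not tested. Basal markers (7 tested), neuroendocrine markers (4) and leukocyte markers (2) had 0 genes on either side without overlap, and the 4 tested endothelial markers had 1 below.

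In the proteasome, lysosome and antigen presentation lists most members overlapped between the groups. Of 31 proteasome subunits 8 lay above the controls in all 3 libraries and 0 below, with a median log2 fold change of 0.26, and of 30 lysosomal genes 9 lay above and 1 below, with a median of 0.22, beside 10.9% above and 10.7% below over all genes. The medians of libraries 1, 2 and 3 were 0.39, 0.43 and -0.02 for the proteasome and 0.20, 0.26 and 0.10 for the lysosome. Fitted apart, 24 of the 31 proteasome subunits were called higher and 2 lower with libraries 1 and 2, beside 20.2% and 16.7% over all genes. With library 3 alone the median log2 fold change of the proteasome subunits was -0.04. Without scaling factors the medians were 0.01 and -0.01, with 6 above and 5 below for the proteasome and 2 above and 1 below for the lysosome. PSMD12, of the regulatory particle, stood at 65.1, 78.2 and 69.2 CPM in the controls against 103, 112 and 94.2 CPM in those labelled knockdown. ATP6V1E1, of the lysosomal proton pump, stood at 50.7, 52.9 and 46.0 CPM against 82.4, 82.7 and 58.04 CPM. Library 3 was the lowest of the knockdown-labelled libraries in both genes but above the controls. Of 13 MHC class I presentation genes, 5 lay above and 0 below, with medians of 0.47, 0.49 and 0.20 in libraries 1, 2 and 3. B2M, the light chain of MHC class I, stood at 17.4, 17.3 and 24.0 CPM against 42.3, 53.4 and 24.8 CPM, and PSME1, a proteasome activator, at 89.0, 89.4 and 89.3 CPM against 151, 156 and 103 CPM. The B2M gap in library 3 was under the spread of the controls.

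Most members of the growth factor, hypoxia and lipid lists overlapped between the groups. A list could still differ by library, as the hypoxia and glycolysis medians below show. Over all genes 10.9% lay above and 10.7% below, and no count in this paragraph was tested against them. Among 15 tested genes of the EGFR family, its ligands and the HIP1 adaptors, 2 lay above and 2 below. ADAM17, the sheddase that releases EGFR ligands, stood at 38.3, 39.9 and 40.8 CPM in the controls against 55.4, 51.9 and 61.7 CPM in those labelled knockdown, with library 3 highest. HIP1R, an endocytic adaptor, stood at 138, 133 and 133 CPM against 111, 104 and 77.4 CPM, with library 3 lowest. The 27 genes of ERK output had 3 above and 2 below, among them DUSP6, a phosphatase of ERK, at 9.84, 10.8 and 7.95 CPM against 16.5, 16.4 and 12.2 CPM. KLF4, an immediate early transcription factor, lay below (log2 fold change -0.48). Of 36 hypoxia and glycolysis genes, 0 lay above and 4 below, and the median was 0.31, 0.28 and -0.38 in libraries 1, 2 and 3. Their counts were 1 above and 1 below after the length and GC correction, and 0 above and 8 below without scaling factors. EGLN1, the prolyl hydroxylase that marks HIF for degradation, stood at 21, 20.2 and 22.4 CPM against 7.01, 11 and 13.8 CPM (log2 fold change -0.99, SE 0.243, adjusted p = 0.241). Its library 3 value lay nearest to the controls. Of 34 cholesterol and fatty acid genes, 5 lay above and 6 below. The counts were 6 above and 2 below after the correction, and 3 above and 10 below without scaling factors. Lanosterol synthase LSS stood at 176, 162 and 154 CPM against 113, 120 and 112 CPM. INSIG1, which holds back the sterol sensor SCAP, stood at 209, 200 and 232 CPM against 298, 305 and 274 CPM.

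**Figure D4:**
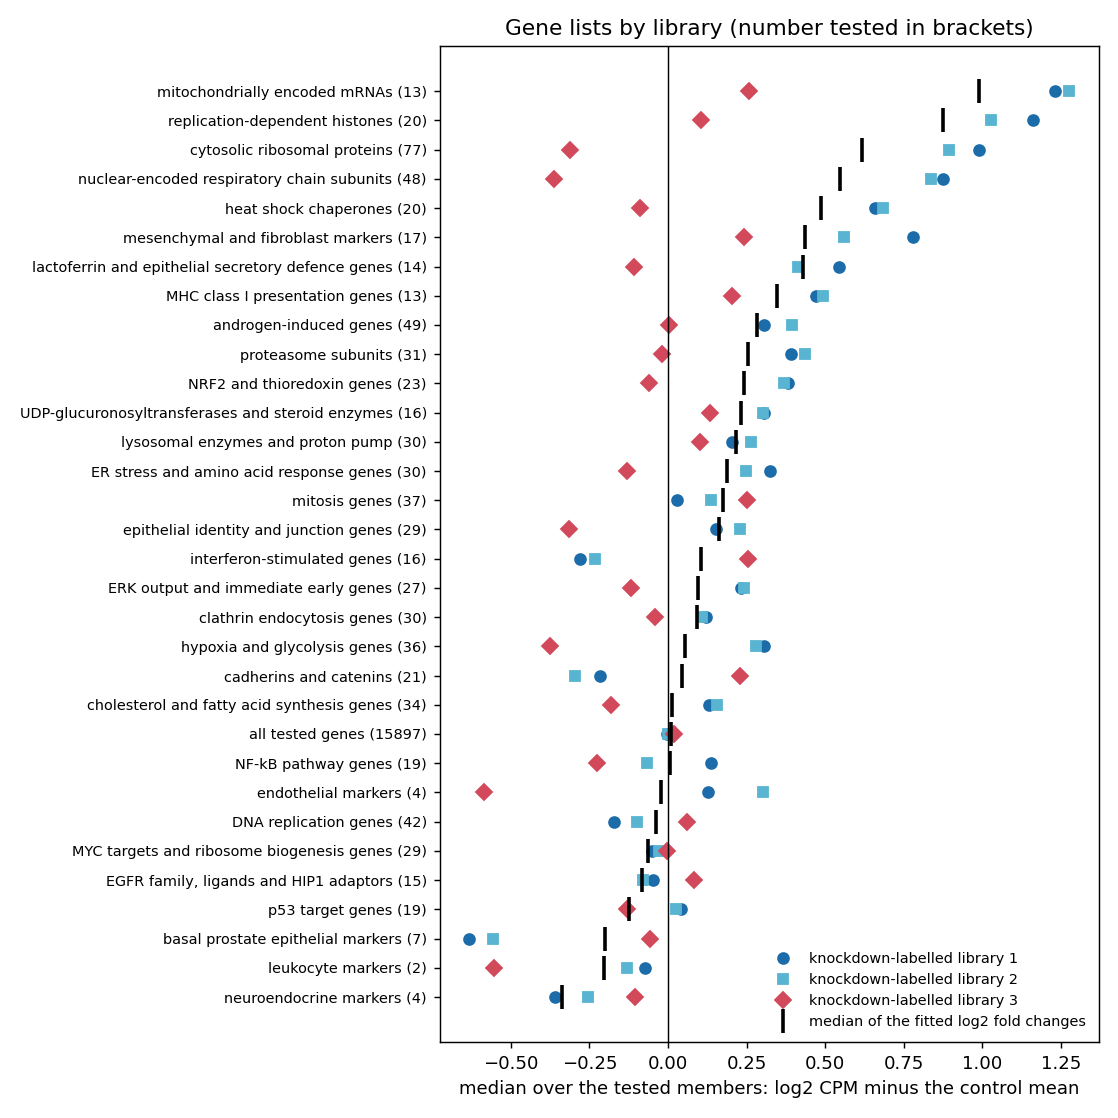
Median over the tested members of each gene list of log2 CPM minus the control mean, for each knockdown-labelled library (symbols), and the median fitted log2 fold change (black bars). Libraries 1 and 2 lie close together in many lists but on opposite sides of 0 for NF-kB pathway genes (0.14 and -0.07). Library 3 lies on the other side of 0 from both for ribosomal proteins (-0.31) and nuclear-encoded respiratory chain subunits (-0.36). It lies on their side for mitochondrially encoded mRNAs (0.26).

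Of 19 genes of the NF-kB pathway, 1 lay above and 4 below, with TNFAIP2 described above and TRAF3, a negative regulator of the non-canonical branch, among those below (57.2, 52.0 and 44.3 CPM against 32.0, 32.1 and 39.2 CPM). BIRC2, a ubiquitin ligase of the same branch, lay above, at 24.3, 22.9 and 22.2 CPM against 30.1, 35.4 and 33.4 CPM. The interferon-stimulated genes had 2 above and 2 below among 16, with MX1 at 39.5, 40.2 and 54.8 CPM against 26.1, 28.6 and 36.6 CPM. The p53 targets had 2 above and 1 below among 19, the NRF2 and thioredoxin genes 1 above and 0 below among 23, and the MYC and ribosome biogenesis genes 3 above and 4 below among 29. The clathrin endocytosis genes had 3 above and 2 below among 30, the ER stress and amino acid genes 3 above and 0 below among 30, and the epithelial identity and junction genes 1 above and 4 below among 29. The medians of libraries 1, 2 and 3 were 0.38, 0.37 and -0.06 for the NRF2 and thioredoxin genes. They were 0.32, 0.25 and -0.13 for the ER stress and amino acid genes. The interferon-stimulated genes went the other way, at -0.28, -0.23 and 0.26, and the MYC and ribosome biogenesis genes stood at -0.05, -0.03 and -0.002. The epithelial counts were 4 above and 0 below after the length and GC correction, and 0 above and 6 below without scaling factors. Over all genes 10.9% lay above and 10.7% below, and no count in this paragraph was tested against them. Of the genes described from these lists, ACSL3, DSC2, FN1, KIF20A, RFC3, ADAM17, INSIG1, HSPA4 and BIRC2 overlapped between the groups without scaling factors. After the length and GC correction ACSL3, DSC2, ATP5F1C, B2M, H2AC6 and PSMD12 overlapped, besides the genes already named for it.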

How the data were processed

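The authors deposited, for each library, raw read counts per gene, not normalized. The submitters' processing notes name the tools FastQC, cutadapt, STAR and HTSeq and the build hg38. No version, annotation or strand setting is given in the sources used here. Reads on no feature (43.7% to 48.6% of each of the 6 libraries' rows), ambiguous reads and reads aligned to several places were left out of all totals and fits. Of 60325 gene rows, 55709 matched 1 gene of GENCODE release 29. Without a known strand setting, antisense and overlapping genes are uncertain, and genes with at least 20% of their exon bases under a more highly counted opposite-strand gene were not named.

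The test was the quasi-likelihood F test of edgeR 4.0.16 under R 4.3.3 (filterByExpr with a minimum count of 10, TMM, 6 libraries, no covariate, Benjamini-Hochberg adjustment over all 15897 tested genes, threshold 0.05). With 4 residual degrees of freedom, 8.111 after moderation, intervals (95%) are wide. Each SE was derived from the log2 fold change and its F statistic. CPM are per 1e+06 counts, and log2 CPM used a prior count of 2. The code was tested on simulated counts. Genes named were UGT2B28, LTF, CDH4, UGT2B paralogs, the 12 protein-coding genes with the widest gap on each side, and, from every described list, the 3 members of smallest p, of which the text takes some; basal, neuroendocrine, endothelial and leukocyte lists are given as counts. The luminal and other markers of cell type were named besides. Some genes and 1 list are not reported here, and the next genes by the same rule take their place. The members, the 31 lists and the comparison were chosen with earlier results of these data known. Alternatives used DESeq2 1.42.0 and limma 3.58.1 (voom), other filters and scaling, a loess correction for exon length and GC content (96.7% of genes had both), all 9 libraries, the replicate number as a block, and each library left out. No pairing of the groups by replicate number was assumed in the test.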

Additional observations from a re-analysis of the deposited data

How the results depend on the processing

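The count of 0 genes called by edgeR became 592 with no filter on low counts, 276 with the DESeq2 Wald test, 6461 with voom and sample quality weights, 1 with all 9 libraries in one fit and 2651 with knockdown-labelled library 3 alone. With 1 library left out it ran from 0 to 6010, the highest value being that without knockdown-labelled library 3 and the others 0. The replicate number as a block gave 0 genes and -0.10 for UGT2B28. Correlations of same-numbered libraries' deviations from their group means were -0.003, -0.034 and -0.040. With 3 libraries per group, these values cannot decide whether same-numbered libraries were handled together. Genes without overlap numbered 711 higher and 2725 lower without scaling factors (20.7% higher, against 50.5% with TMM) and 1113 lower after the length and GC correction. With 1 library left out they ran from 2138 to 4878 higher and from 2140 to 4800 lower, both highest without knockdown-labelled library 3. UGT2B28 turned to 0.26 with quality weights and ran from -0.38 to 0.26 with 1 library left out. With library 3 alone, 10 genes of the described lists changed sign: TFF3 (-0.32), KRT19 (-0.097), KRT7 (-0.94), H2BC12 (-0.057), H1-2 (-0.59), DNAJB9 (-0.32), GPX4 (-0.080), PRDX3 (-0.091), HSPE1 (-0.069) and SRM (-0.036). Of 1717 other values of 101 named genes, 277 passed the threshold under an alternative with the sign unchanged. Of 527 list medians, 63 moved by more than the spread between knockdown-labelled libraries. The cause of these changes was not tested. At 8132206 to 14185252 counts per library, genes at a few CPM such as CDH4 rest on few reads.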
